A study of Mus musculus with 4 samples.

Results

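Protein acetylation is set by a group of enzymes that add or remove acetyl groups on lysines and by proteins that bind the modified residue. Here 33 mouse genes of this kind were followed in small-intestinal crypts: 11 classical deacetylases (Hdac1 to Hdac11), 7 sirtuins (Sirt1 to Sirt7), 13 acetyltransferases and coactivators (Ep300, Crebbp, Kat2a, Kat2b, Kat5, Kat6a, Kat6b, Kat7, Kat8, Hat1, Ncoa1, Ncoa2 and Ncoa3) and 2 BET readers (Brd2 and Brd3). The rule was a list of symbols and used no measured value, though the list was drawn up with earlier results of these data known, and all 33 have a row in both tables of the series, out of 24182 genes that do.

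The animals were male C57BL/6J mice, 9 weeks old, in 4 groups: fed or fasted for 24 hours, each either without tetracycline or after 21 days of this antibiotic. The labels give 1 sample to each group and describe the material as epithelial cells, released from crypts by chelation and made single with trypsin. The data are 2 tables of the authors' own comparisons of fasted with fed crypts, 1 without and 1 with tetracycline. Each table proved to hold 2 libraries per side. These 8 libraries cannot be tied to labelled samples, nothing says whether they are separate animals, and p-values may thus measure technical spread only.

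As background, acetylation of histone tails loosens chromatin and recruits bromodomain proteins, and deacetylases reverse it within repressive complexes. Acetyltransferases spend acetyl-CoA, and sirtuins spend NAD, so both reactions draw on metabolites that depend on feeding. In the gut epithelium Hdac1, Hdac2 and Hdac3 are known for roles in crypt proliferation and barrier function, and Sirt1 for a role in stem cells under restricted diets.

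A number in these tables is only as specific as the reads behind it. Of the 31-base words in the Hdac1 transcripts, 40.0% also occur in another annotated gene, the highest share among the 33, and 34.8% occur in Gm10093. This is a processed pseudogene at chr17:78491582-78493025 (plus strand, mm10), and Hdac1 lies at chr4:129516104-129542713 (minus strand). The 2 sequences are identical at 1435 of the 1444 coding bases compared (99.4%), out of 1446 in Hdac1. A further gene, AC125456.1, holds 11.2% of the words. The stretch below runs from coding base 393 to coding base 482 of Hdac1, counted from the A of its start codon, and was chosen as the 90 bases with the most differences. Capitals mark the 6 bases at which the gene and its copy differ (GENCODE M21 transcripts, 5′ to 3′).
Hdac1: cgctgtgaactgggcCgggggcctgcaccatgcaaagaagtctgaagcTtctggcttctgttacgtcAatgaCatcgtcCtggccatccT
Gm10093: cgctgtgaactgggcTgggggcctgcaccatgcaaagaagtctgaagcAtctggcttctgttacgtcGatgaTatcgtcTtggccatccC

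Outside this stretch 3 further bases of those compared tell the 2 apart, so the counts of Hdac1 are uncertain by whatever reads Gm10093 and AC125456.1 received or gave. No such sharing was found between Hdac1 and Hdac2. Kat2b shares 14.6% of its words with other genes, mainly a pseudogene of its own, and Sirt5 shares 16.4% with others, of which 8.96% with Wdr31. Kat8 shares 12.7%, spread over several genes with at most 3.53% in any one. The library kit did not keep the strand, so exons that lie under a gene on the opposite strand are uncertain too. This concerns Hdac4 (22.4% of its exon bases, under Gm26720), Hdac11 (17.9%, under Gm44002 and Gm14573), Sirt3 (12.7%, under Ric8a and Psmd13), Kat5 (12.1%, under Rnaseh2c) and Brd2 (9.78%, under H2-DMa and a further transcript). The other members have at most 4.22% of their exon bases in another gene.

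The deposited means of the 33 genes ran from 22.9 to 10958 normalized counts without tetracycline and from 27.8 to 11314 with it, with Hdac9 the lowest and Sirt4, at 339 and 341, the next. A normalized count is a read count divided by the size factor of its library. The size factors lay between 0.9299 and 1.09 without and between 0.7268 and 1.27 with tetracycline, and the means of all rows add up to 65863261 and 65327198. Epithelial genes were abundant, with a deposited mean of 83703 for Epcam without tetracycline, but markers of other cells were also present, at levels that differed between libraries. The sum of 11 lymphocyte markers was 6574 and 13712 normalized counts in the 2 fasted libraries and 17085 and 24315 in the 2 fed ones without tetracycline. With tetracycline it was 21432 and 3407 in the fasted and 63515 and 16709 in the fed libraries. Proliferation markers (9 genes) summed to 28070 and 35411 in fasted against 56567 and 36984 in fed libraries without tetracycline, and to 38631 and 25337 against 37288 and 57287 with it. Paneth cell markers were called higher in fasted crypts for 4 of 6 genes without and for 0 of 6 with tetracycline. Of all genes tested, 2.27% and 0.600% were called in either direction. The median log2 change of the Paneth cell markers was 1.10 without and 1.19 with tetracycline, so the estimates were of like size in both tables. Fewer cells of a type and less RNA per cell cannot be told apart in such bulk samples.

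Per kb of exon, the scale on which genes can be set side by side, the order of levels was almost the same in both tables (Spearman's rho 0.99 over the 33 genes, as a description). Hdac1 (1402 without tetracycline and 1327 with it), Brd2 (1399 and 1445) and Hdac3 (1201 and 1236) stood at the top in each. Hdac11, the class IV enzyme (880 and 975), and Kat7, the MYST enzyme also called HBO1 (775 and 816), followed. Sirt7 was the highest sirtuin per kb (717 and 749), above Sirt2 (549 and 569), and Kat7 the highest acetyltransferase. Lowest without tetracycline were Hdac8 (92.4 and 92.1), Kat6b (89.7 and 101), Hdac7 (61.5 and 95.1) and Hdac9 (1.6 and 1.9), and with tetracycline Hdac6 (107 and 100.1) also lay below Kat6b. Of the 32 pairs of neighbours in this order, 26 without and 24 with tetracycline differed by less than the 2 libraries of 1 side typically differed within a gene (a median absolute log2 ratio of 0.27 and 0.20). The gap of 5.30 and 5.60 on the log2 scale between Hdac9 and the next gene is far larger. Exon length counts every annotated exon, so genes with many alternative exons appear lower than their main transcript.

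**Figure D1:**
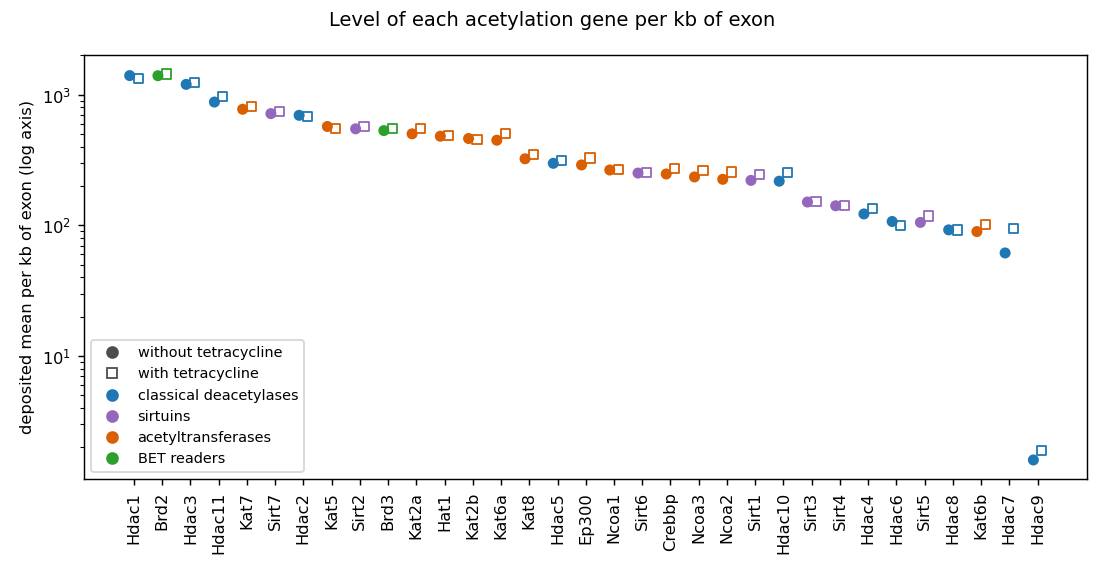
Deposited mean per kb of exon (log axis) for the 33 genes in the order found without tetracycline, with filled circles for the table without and open squares for the table with tetracycline. Hdac1, Brd2 and Hdac3 head both tables and Hdac9 stands below all others.

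Fasting changed none of the 33 genes past the threshold in either table. The authors' DESeq2 test at an adjusted p under 0.05 called 0 of 33 without tetracycline, where it called 2.27% of all genes tested (411 of 18100), and 0 of 33 with tetracycline, where it called 0.600% (108 of 17993). At an unadjusted p under 0.05 there was 1 gene of the 33, Hdac9, without and 0 with tetracycline, against 10.8% and 5.34% of all genes tested. The lowest adjusted p among the 33 was 0.14 without tetracycline, and with tetracycline all were at 0.9999 or above. Directions were split, with 18 genes higher and 15 lower in fasted crypts without tetracycline and 12 higher and 21 lower with it. Their median log2 change was 0.02 and -0.09, beside 0.01 and -0.02 over all genes tested. The first median is -0.0021 once changes are centred on all genes with a mean of at least 1, and the second is 0.04 without the first fasted library, so neither has a settled sign.

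The deposited standard errors give an interval for each change. They come from the authors' DESeq2 fit across all genes, so they are not the spread between the 2 libraries of a side alone. Spread between animals may not be covered. Without tetracycline the 95% interval of the log2 change lay within -1 to 1 for 30 of the 33, the exceptions being Hdac7, Hdac9 and Kat6b. With tetracycline, where standard errors were larger (a median of 0.38 against 0.28), this held for 20. The estimate itself was under 0.5 in size for 32 genes without and 29 with tetracycline. In 24 of the 33 genes in each table, the 2 libraries of one side differed from each other by more than fasted differed from fed. Leaving out 1 library at a time turned the sign of 17 of the 33 estimates without and of 21 with tetracycline. With those counted, 30 and 27 of the 33 estimates turned or moved by more than 1.5 times in at least 1 such case.

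**Figure D2:**
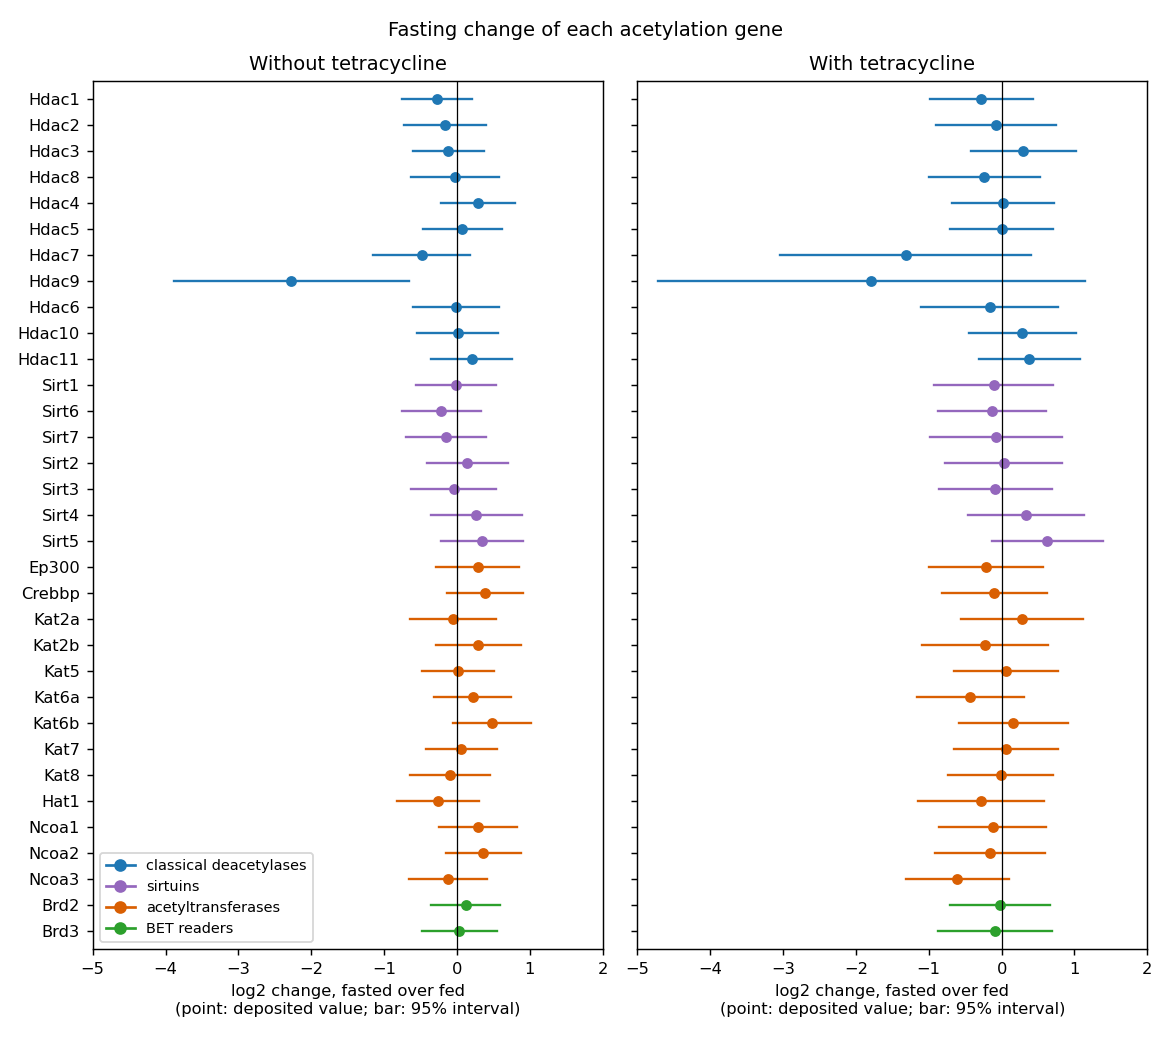
The log2 change, fasted over fed, of each gene in the authors' deposited tables, with its 95% interval as a bar and colours for the 4 families. All intervals except that of Hdac9 without tetracycline cross 0, and Hdac7 and Hdac9 have the widest intervals with tetracycline.

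The library values give a second view. Without tetracycline, both fasted libraries were above both fed ones for 8 of the 33 genes and below for 4. Over all 14378 genes whose libraries could be read, 21.4% were above and 24.2% below. With tetracycline 5 genes were above and 5 below, where 15.5% and 15.6% of 14614 genes were. The share above was thus close to that of all genes in each table, and the share below was smaller than that of all genes without tetracycline and close to it with tetracycline. Sirt4 and Sirt5 were above in both tables, as were 6.68% of 14079 genes, and Hdac1 and Sirt6 were below in both, as were 7.49%.

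**Figure D3:**
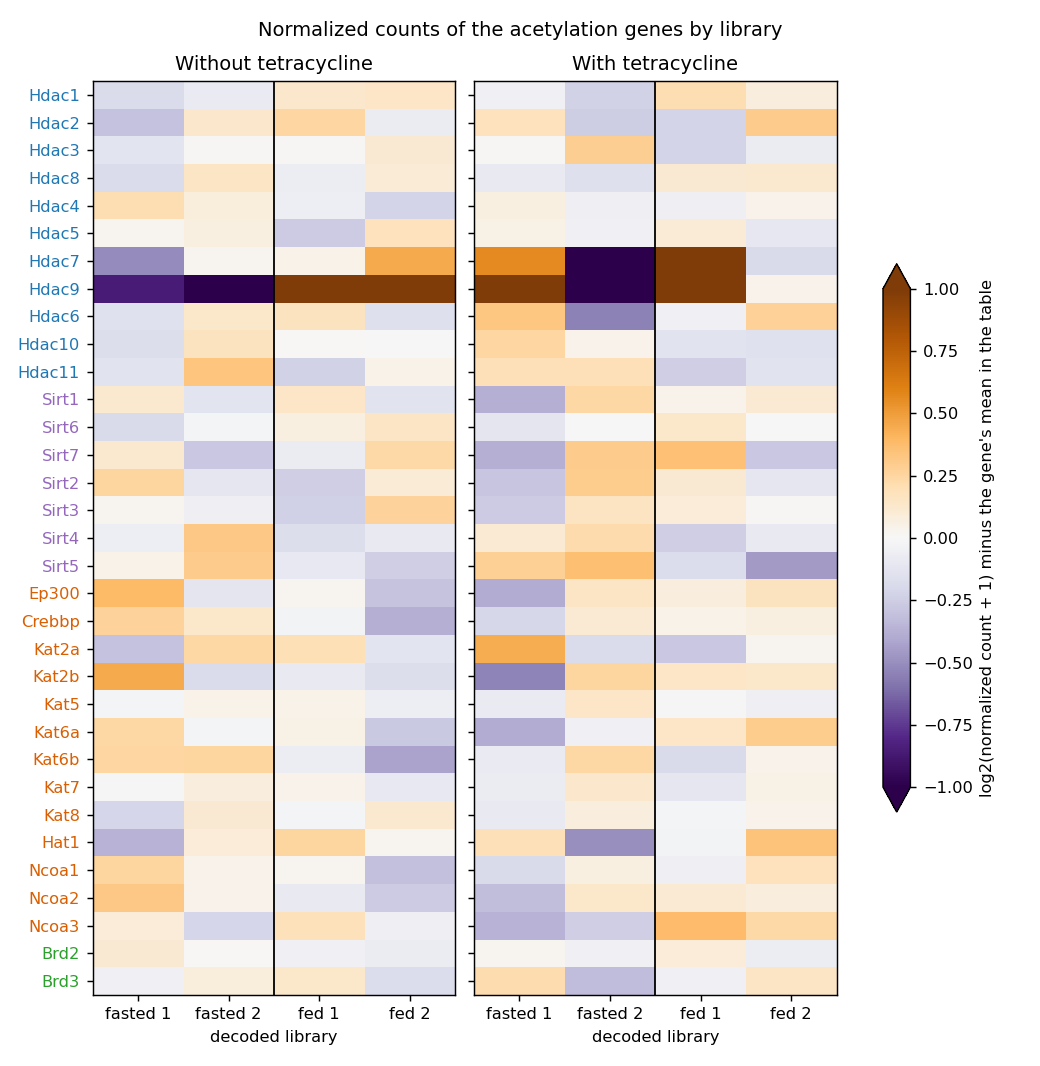
Each cell is log2 of the normalized count plus 1 in 1 decoded library, minus the mean of the gene over the 4 libraries of its table, with fasted libraries left and fed libraries right of the line and colour limits at -1 and 1. Hdac7 and Hdac9 vary most, and most other rows show no common split between fasted and fed libraries.

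Class I deacetylases are 4 mainly nuclear enzymes, of which Hdac1, Hdac2 and Hdac3 act within the repressive complexes. All 4 had estimates below 0 without tetracycline (3 of 4 when centred on genes with a mean of at least 500), and 3 of 4 did with it, none past the threshold. Without the first fasted library only 2 of the 4 were below 0 without tetracycline. Hdac1, the catalytic subunit shared by the NuRD, CoREST and Sin3 complexes, was at 4222 and 4529 normalized counts in fasted against 5241 and 5301 in fed libraries without tetracycline. With tetracycline it was at 4393 and 3863 against 5240 and 4768. Fasted libraries were thus below fed ones in both tables, and the authors' deposited tables give a change of -0.27 (SE 0.25, adjusted p = 0.82) without and -0.28 (SE 0.36) with tetracycline. The uncertainty from shared sequence applies to these values.

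Hdac2, its partner in the same complexes, had overlapping groups, with a deposited change of -0.17 (SE 0.29) without and -0.08 (SE 0.42) with tetracycline. Hdac3, the enzyme of the nuclear receptor corepressor complex, was at 4432 and 4892 in fasted against 4886 and 5251 in fed libraries without tetracycline, which overlap. With tetracycline both fasted libraries were above both fed ones, with 5010 and 6038 in fasted against 4257 and 4721 in fed libraries. Its changes in the authors' deposited tables were -0.12 (SE 0.25) and 0.30 (SE 0.37), and their difference of 0.42 (SE 0.44) did not pass (p = 0.34, Wald test). Hdac8, an enzyme that acts on cohesin, was lower in both fasted libraries with tetracycline (418 and 400 against 481 and 483) and overlapped without it.

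Class IIa deacetylases bind MEF2 transcription factors and shuttle between nucleus and cytoplasm. They held the largest and least certain values of the 33. Hdac9 (chr12:34047580-34917095, minus strand), the class IIa enzyme with the lowest level, was at 9.2 and 6.5 normalized counts in fasted against 37.7 and 38.2 in fed libraries without tetracycline. The change in the authors' deposited table was -2.27 (SE 0.82, p = 0.0057, adjusted p = 0.14), the largest in size among the 33. With a pseudocount of 10 the change of Hdac9 was -1.43. With tetracycline its values were 24.7 and 0 in fasted against 74.8 and 11.9 in fed libraries. The groups overlapped there, the deposited change was -1.79 (SE 1.498), and without the first fed library it was 0.06.

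Hdac7 (chr15:97792664-97844502, minus strand), a class IIa enzyme known from thymocytes, B cells and endothelium, was at 283 and 411 in fasted against 417 and 551 in fed libraries without tetracycline. With tetracycline it was at 639 and 97.7 against 1455 and 376, so that 1 fasted library was above 1 fed library. The authors' deposited tables give -0.48 (SE 0.34) and -1.31 (SE 0.88). Leaving out 1 library at a time moved the second value between -3.23 and -0.03.

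The order of the libraries was also set beside that of other cells' markers. Without tetracycline 3 of the 33 genes (Hdac1, Hdac7 and Sirt6) had their 4 libraries in the order of the summed lymphocyte markers, as did 8.91% of all genes, and with tetracycline 2 (Hdac7 and Hdac9), as did 9.06%. Hdac7 alone had that order in both tables, 1 gene of 33 where 2.89% of 14068 genes did, so these counts are close to or below the share of all genes. Of the 11 lymphocyte markers 5 were called lower in fasted crypts without and 0 with tetracycline, and none was at 0 in every library. Their median log2 change was -1.77 without and -1.63 with tetracycline, of like size in both tables. The sum of 7 stroma markers had the order of the lymphocyte sum in both tables (766 and 1474 against 1576 and 2927 without, 2050 and 759 against 3757 and 1521 with tetracycline). Myeloid markers had it without tetracycline (1164 and 1621 against 2199 and 3886) and not with it (2237 and 651 against 6058 and 2870). Endothelial markers had it with tetracycline (409 and 102 against 728 and 297) and not without it (205 and 335 against 315 and 350). The part of these cells in the Hdac7 and Hdac9 values was not tested, and this comparison was chosen after the values were seen.

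Hdac4 and Hdac5, the other class IIa enzymes, did not show that spread. Hdac4 was at 2221 and 2029 in fasted against 1842 and 1645 in fed libraries without tetracycline, and at 2236 and 2067 against 2064 and 2187 with it. Hdac5 stayed between 2171 and 2963 in the libraries of both tables. Their deposited changes were 0.29 (SE 0.26) and 0.07 (SE 0.28) without and 0.02 (SE 0.36) and 0.00 (SE 0.36) with tetracycline.

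**Figure D4:**
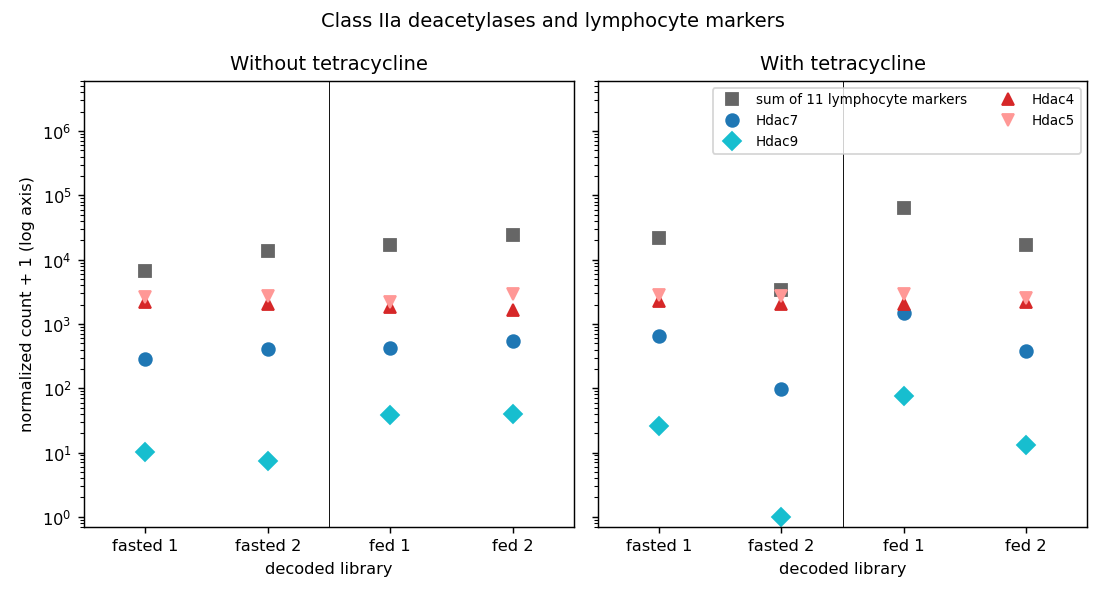
Normalized count plus 1 (log axis) in each decoded library for the 4 class IIa deacetylases and the sum of 11 lymphocyte markers. Hdac7 runs from 97.7 to 1455 and Hdac9 from 0 to 74.8 in the right panel, where Hdac4 stays between 2064 and 2236.

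The class IIb deacetylases had estimates near 0 without tetracycline. Hdac6, the cytoplasmic tubulin deacetylase, had a deposited change of -0.01 (SE 0.30) without and -0.16 (SE 0.48) with tetracycline, and its libraries overlapped in both tables. Hdac10, a polyamine deacetylase, had a deposited change of 0.01 (SE 0.29) without tetracycline. With tetracycline Hdac10 was higher in both fasted libraries (1015 and 879 against 780 and 774) with a deposited change of 0.29 (SE 0.37). Hdac11, known as a remover of long-chain acyl groups, was at 4242 and 4254 in fasted against 3144 and 3377 in fed libraries with tetracycline. Its libraries overlapped without tetracycline (3041 and 4207 against 2850 and 3450), and the authors' deposited tables give 0.20 (SE 0.29) without and 0.38 (SE 0.35) with tetracycline.

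No sirtuin passed the threshold in either table. The 3 nuclear sirtuins had estimates below 0 in both tables, though 1 of them was above 0 without tetracycline when centred on genes with a mean of at least 500. Leaving out 1 library put up to 2 of the 3 above 0 in each table. Sirt1, the deacetylase of p53 and PGC-1alpha, had changes of -0.01 (SE 0.28) and -0.11 (SE 0.42) in the authors' deposited tables, with overlapping libraries. Sirt6, a deacetylase of histone H3, was at 611 and 688 in fasted against 733 and 776 in fed libraries without tetracycline, and at 653 and 707.2 against 780 and 707.5 with it. Its deposited changes were -0.22 (SE 0.28) and -0.13 (SE 0.38). Sirt7, a nucleolar enzyme, had -0.15 (SE 0.28) and -0.08 (SE 0.46) with overlapping libraries, and Sirt2, the cytosolic sirtuin, 0.14 (SE 0.28) and 0.03 (SE 0.41).

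Mitochondrial Sirt5 (chr13:43365496-43395203, plus strand), which removes succinyl, malonyl and glutaryl groups, had the largest estimate among the sirtuins in both tables. It was at 656 and 782 normalized counts in fasted against 593 and 537 in fed libraries without tetracycline. With tetracycline it was at 848 and 901 against 621 and 509. All fasted libraries were above all fed libraries of their table, and the authors' deposited tables give 0.35 (SE 0.29, p = 0.22) and 0.63 (SE 0.39, p = 0.10), neither past the threshold. Leaving out 1 library at a time kept the first between 0.22 and 0.47 and the second between 0.50 and 0.78. Wdr31, the gene it shares most words with, had a deposited change of 0.54 (SE 0.31) without and 0.08 (SE 0.40) with tetracycline, and its part in the Sirt5 counts was not tested.

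Sirt4, a mitochondrial enzyme of amino acid metabolism, was also higher in both fasted libraries of each table. Its values were 323 and 418 against 300 and 316 without and 365 and 396 against 286 and 318 with tetracycline. The deposited changes were 0.27 (SE 0.32) and 0.33 (SE 0.40). Without the second fasted library the first was 0.07, and leaving out 1 library at a time kept the second between 0.26 and 0.41. Sirt3, the main mitochondrial deacetylase, had overlapping libraries and deposited changes of -0.05 (SE 0.30) and -0.09 (SE 0.40).

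Acetyltransferases and coactivators gave 9 of 13 estimates above 0 without tetracycline (median 0.22) and 4 of 13 with it (median -0.12), none past the threshold. Centring on genes with a mean of at least 1 gave 8 of 13 without and 5 of 13 with tetracycline, centring on those with a mean of at least 500 gave 9 and 4, and leaving out 1 library at a time 7 to 10 and 2 to 8 of 13. Kat6b (chr14:21481434-21672478, plus strand), the MYST enzyme also called MORF, had the largest estimate without tetracycline. It was at 1752 and 1764 in fasted against 1411 and 1098 in fed libraries, with a change of 0.49 in the authors' deposited table (SE 0.27, p = 0.075, adjusted p = 0.55). It was 0.32 without the second fed library and 0.68 without the first. With tetracycline its libraries overlapped (1599 and 1999 against 1484 and 1733) and the deposited change was 0.16 (SE 0.38).

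Ep300 and Crebbp encode the paired coactivators p300 and CBP. Crebbp was at 3954 and 3626 in fasted against 3243 and 2542 in fed libraries without tetracycline, a deposited change of 0.39 (SE 0.27) that moved between 0.22 without the second and 0.58 without the first fed library. With tetracycline it was at 3153 and 3913 against 3760 and 3810, a deposited change of -0.10 (SE 0.37). Ep300 overlapped in both tables, with deposited changes of 0.29 (SE 0.29) and -0.22 (SE 0.40).

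Kat6a, the MYST enzyme also called MOZ, was at 4820 and 4037 in fasted against 4236 and 3388 in fed libraries without tetracycline. With tetracycline it was at 3458 and 4403 against 5020 and 5561, below both fed libraries. The authors' deposited tables give 0.22 (SE 0.27) and -0.43 (SE 0.37). The second value was -0.27 without the first and -0.61 without the second fasted library. Kat5, Kat7 and Kat8, the other MYST enzymes, had deposited changes between -0.09 and 0.06 in both tables.

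Of the GNAT enzymes of the SAGA and ATAC complexes, Kat2a had deposited changes of -0.05 (SE 0.30) and 0.28 (SE 0.42) and Kat2b of 0.30 (SE 0.30) and -0.23 (SE 0.44). Both overlapped in both tables. Kat2b without tetracycline rests on the first fasted library, at 3017 where the other 3 were between 1948 and 2078, and without it the change was -0.05. Hat1, which acetylates newly made histone H4, was lower in both tables with overlapping libraries, at deposited changes of -0.26 (SE 0.29) and -0.28 (SE 0.44). These moved between -0.50 and -0.05 and between -0.665 and 0.02 when 1 library was left out. Without tetracycline 0 of the 33 genes had their 4 libraries in the order of the summed proliferation markers, as did 6.38% of all genes, and with tetracycline 2 (Hat1 and Hdac2), as did 4.72%. None of the 33 had that order in both tables, where 1.31% of 14070 genes did.

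The p160 coactivators carry nuclear receptor signals to p300 and CBP. Ncoa3 (chr2:165992636-166073242, plus strand) had the largest estimate of the acetyltransferase group with tetracycline. It was at 1589 and 1723 in fasted against 2651 and 2391 in fed libraries, so that both fasted libraries lay below both fed ones, and the authors' deposited table gives -0.61 (SE 0.36, p = 0.093). Leaving out 1 library at a time kept it between -0.68 and -0.53. Without tetracycline it was at 1959 and 1588 against 2088 and 1776, overlapping, with a deposited change of -0.12 (SE 0.27). Ncoa1 and Ncoa2 were higher in both fasted libraries without tetracycline (2692 and 2312 against 2287 and 1820, and 4339 and 3565 against 3264 and 2892). Their deposited changes were 0.29 (SE 0.27) and 0.36 (SE 0.26) without and -0.12 (SE 0.37) and -0.16 (SE 0.38) with tetracycline.

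The BET readers bind acetylated histones through paired bromodomains. Brd2 (chr17:34112023-34122634, minus strand) had the highest deposited mean of all 33 genes in both tables. Without tetracycline it was at 11841 and 10967 in fasted against 10632 and 10390 in fed libraries, and with it at 11495 and 10969 against 12019 and 10772. The authors' deposited tables give 0.12 (SE 0.24) and -0.02 (SE 0.35), with 95% intervals from -0.36 to 0.59 and from -0.71 to 0.67. Brd3 overlapped in both tables, at 3775 and 4123 against 4268 and 3448 without and 4651 and 3207 against 3904 and 4451 with tetracycline. Its deposited changes were 0.03 (SE 0.26) and -0.09 (SE 0.40).

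The estimates ran with exon length, and this was so for all genes and not just these. Among genes with a mean from 500 to 12000, those with at least 7 kb of exon had a median deposited change of 0.13 without tetracycline (1509 of 2211 higher) and those under 4 kb one of -0.16. Of the 33 genes, 11 with such means have at least 7 kb of exon, and 10 of these were higher without tetracycline, with a median of 0.29. With tetracycline the medians of all genes were -0.06 for long and 0.03 for short ones, and 3 of the 11 long acetylation genes were higher (median -0.10). Over genes with such means, Spearman's rho of the change with exon length was 0.39 without and -0.12 with tetracycline for all (8480 and 8638 genes) and 0.72 and -0.17 for the acetylation genes (29 and 30). Over all 33 it was 0.47 and -0.26. These are descriptions across genes that share the same libraries. The 2 fed libraries without tetracycline also differed by length, with a median log2 ratio of the first to the second of 0.18 for long and -0.19 for short genes. The part of length in the direction of the acetyltransferases was not tested.

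**Figure D5:**
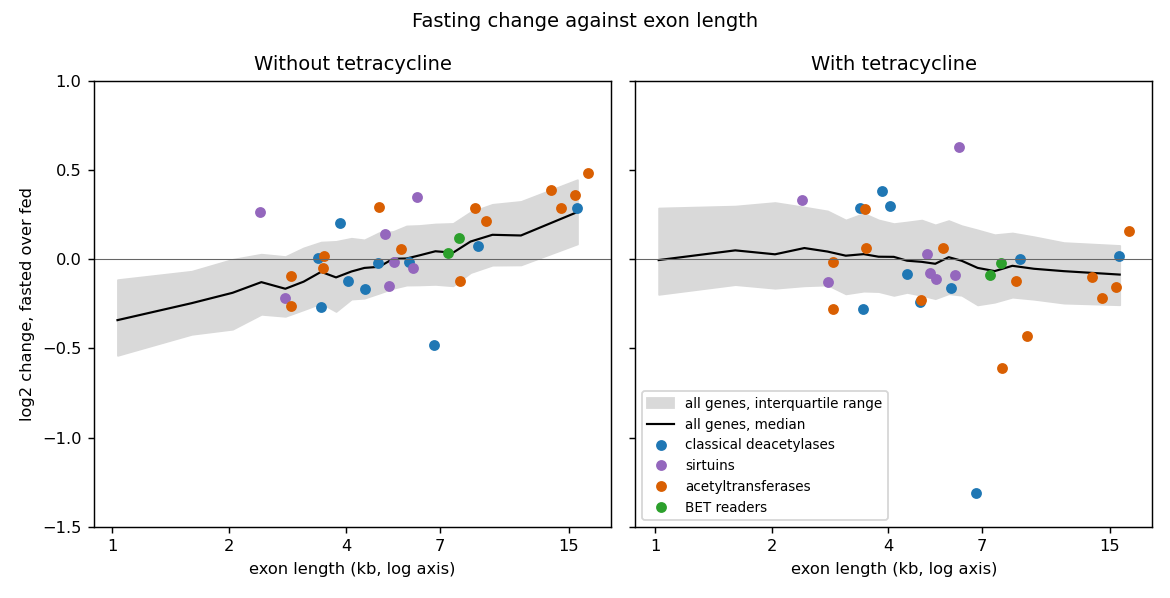
Deposited log2 change, fasted over fed, against exon length (log axis) for 32 of the genes (Hdac9 lies outside the range), over the median and interquartile range of all genes with a mean from 500 to 12000 in 20 groups of like length. The median of all genes climbs with length in the left panel and declines slightly in the right one, and of the 11 genes of at least 7 kb shown here 10 lie above 0 on the left and 3 on the right.

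Whether the fasting response differed with tetracycline was tested for each gene as the difference of the 2 deposited changes. None of the 33 passed at an adjusted p under 0.05 by this Wald test, where 0.0228% of all genes did (4 of 17571), and at an unadjusted p under 0.05 there were 0 of 33 against 1.05% of all genes (185). A count of 0 in 33 is close to that share, which is itself below the 5% that uniform p-values would give. The sign of the change was shared by 23 genes (10 higher and 13 lower in both tables), while 8 were higher without and lower with tetracycline and 2 were the other way. Relative to its error, Kat6a had the largest difference, -0.65 (SE 0.46). Its 95% interval ran from -1.55 to 0.26. Ncoa2 (-0.52, SE 0.47), Crebbp (-0.49, SE 0.45), Ncoa3 (-0.48, SE 0.45) and Ep300 (-0.50, SE 0.49) came next. The intervals of these 5 differences include 0 and reach below -1.

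Levels under tetracycline are described without a test, since the tables were scaled separately and no comparison crosses them. After centring on 21925 genes, the median log2 ratio of tetracycline to no tetracycline over the 33 was 0.04 in fed crypts (20 higher, 13 lower) and -0.05 in fasted crypts (12 higher, 21 lower). In fed crypts Hdac7 had the highest ratio, 0.86, carried by the first fed library at 1455. Kat6a (0.41), Ncoa2 (0.39), Ep300 (0.37), Crebbp (0.33), Ncoa3 (0.32) and Kat6b (0.30) followed, all genes with more than 7 kb of exon, and Hdac3 was lowest at -0.24. In fasted crypts Hdac9 was highest at 0.55, from low counts, and Kat2b lowest at -0.34. These ratios are made from the same group means as the fasting changes and are no separate evidence for them. With the scaling as deposited the medians are 0.10 in fed and 0.02 in fasted crypts, and the fed median is 0.11 when centred on genes with a mean of at least 500.

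Partners of these enzymes were described from 7 lists. The only calls were 2 of 21 tested partners and kinases of class IIa deacetylases, both lower in fasted crypts without tetracycline, where 2.27% of all genes tested were called (220 of those 411 lower). With tetracycline 0.600% of all genes were called and none on these lists. Mef2c, a transcription factor bound by class IIa deacetylases, was at 51.4 and 124 in fasted against 205 and 346 in fed libraries, a change of -1.66 in the authors' deposited table (SE 0.49, adjusted p = 0.034). Mef2b, a relative known from germinal centre B cells, was at 16.5 and 14 against 59.5 and 70.3, a deposited change of -2.09 (SE 0.64, adjusted p = 0.047). In the tetracycline table Camk4, a calcium-dependent kinase, had the lowest deposited change of that list, -2.26 (SE 1.04), not past the threshold, at 42.8 and 6.9 against 205 and 36.7. The libraries of Mef2c and of Camk4 in these tables lie in the order of the lymphocyte sum, as do 8.91% and 9.06% of all genes, and those of Mef2b do not. The part of lymphocytes in these values was not tested.

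The other 6 lists had no calls in either table. Subunits of class I deacetylase complexes (38 genes) had a median deposited change of -0.03 without and -0.08 with tetracycline. With means under 50 left out, their largest increase in both tables was Rcor2, a CoREST corepressor, at 0.84 (SE 0.38) and 0.68 (SE 0.74). Their largest decrease was Mbd3 without, at -0.33 (SE 0.25), and Chd3 with tetracycline, at -0.59 (SE 0.47). Subunits of acetyltransferase complexes (47 genes) had medians of 0.06 and 0.01. Other bromodomain and YEATS readers (30 genes) had 0.16 and -0.15, with 21 of 30 higher without and 10 of 30 with tetracycline. Atad2, a reader linked to DNA replication, had their largest decrease in both tables with means under 50 left out. It was at -0.44 (SE 0.31) and -0.97 (SE 0.50). On the same filter their largest increase was Kmt2a without, at 0.64 (SE 0.29), and Trim28 with tetracycline, at 0.26 (SE 0.40).

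Supply of the cosubstrates showed no called gene either. The 13 genes of acetyl-CoA supply had median deposited changes of -0.11 and 0.01. Slc33a1, the transporter that carries acetyl-CoA into the endoplasmic reticulum, had their largest increase in both tables, at 0.38 (SE 0.27) and 0.70 (SE 0.47). Their largest decrease was Acat2 without, at -0.68 (SE 0.26), and Acly with tetracycline, at -0.37 (SE 0.39). The NAD list (19 rows, of which 17 were tested) had medians over all its rows of 0.01 and 0.19. Bst1, an NAD-cleaving surface enzyme made by Paneth cells, stood at 18318 and 5262 in fasted against 4942 and 7547 in fed libraries without tetracycline, and at 1743 and 19293 against 4815 and 4774 with it. In either comparison a single fasted library was thus far above the other 3, and the deposited changes were 0.92 (SE 0.47) and 1.13 (SE 0.86). Coactivators of nuclear receptors (16 genes) had medians of 0.08 and -0.11.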

How the data were processed

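RNA-seq of mouse crypts was analysed from 2 tables of fasted against fed crypts. Per the submitters' processing notes, the authors used Salmon, DESeq2 and mm10. Versions and the annotation release are not given in the sources used here. Per the file headers, each deposited table has the DESeq2 columns: the authors' mean is a signal (counts over size factors), their fold change and its SE are log2 values, their statistic is a score (change over SE), and the deposited p-values have a Benjamini-Hochberg adjustment. No column states the direction. Fasted over fed was taken from the word order of the table names, and every direction depends on that.

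The 33 genes and all lists were chosen with earlier results of these data known. The design had assumed that no values per library exist. Because means are whole counts times 1 step per library, counts were decoded from the lowest means upward, and a set was kept where a negative binomial fit with the deposited SE gave back the deposited change within 1e-06 (0.0001 for means from 20 to 200). All 33 genes gave 1 solution in each table, as did 99.9% and 99.8% of genes with means from 20 to 12000. Within a side, the first library has the larger size factor. Library values are single values with no SD, and they entered no count test. Decoding and the difference test were run on simulated data. These data were made with the same fit and the same normal model, so they could not test those assumptions.

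A gene is called at an adjusted p under 0.05. Intervals are 95% (estimate and SE). The difference between tables used a two-sided Wald test, adjusted over 17571 genes. Levels across tables used rebuilt group means with a pseudocount of 1. Exon lengths, positions and words of 31 bases came from GENCODE M21 (33 of 33 identifiers matched without their version). Values in every library are given, by rule, for Hdac9, Sirt5, Kat6b, Ncoa3, Brd2 and Brd3, which have the largest change of their family in a table. The other genes shown so, and the comparisons of length, shared words, library order and overlap, were chosen after the values were seen. Pathway genes that are named were called or had the largest change in a direction at a mean of at least 50. Not every gene that meets this rule is named. Promoter motifs were planned only for called genes and were not searched. The scripts used Python 3.11.15, NumPy 2.4.6, pandas 2.3.3 and SciPy 1.17.1. Alternatives were other thresholds, centrings, pseudocounts and filters, and leaving out each library.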

Additional observations from a re-analysis of the deposited data

How the results depend on the processing

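No gene of the 33 was called at thresholds of 0.01, 0.05 or 0.1, with the adjustment over every row that has a p, or in the difference test under its 3 alternatives. Of 200 alternatives, 195 left the value within the spread between libraries, or within 1.5 times for a count, and 5 moved it. A turn of sign could still fall within that spread. Hdac11 without tetracycline, for example, went from 0.20 to -0.05 without the second fasted library. The tally is thus no measure of steadiness. Leaving out 1 library at a time turned the sign of 17 of the 33 estimates without and of 21 with tetracycline. Leaving out 1 library at a time gave a median change over the 33 genes of 0.0135 to 0.071 without tetracycline and of -0.1003 to 0.0397 with it, and 17 to 21 and 13 to 17 genes higher. The value of 0.071 came without the first fed library and that of 0.0397 without the first fasted library, against 0.0178 and -0.087 with all libraries. The counts of higher genes were 16 and 21 without and 14 and 12 with tetracycline when centred on genes with a mean of at least 1 and of at least 500. These counts were added after the data were seen. With a pseudocount of 10, Hdac9 without tetracycline was at -1.43. The causes of these moves were not tested.

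No paired analysis was possible because the decoded libraries carry no replicate number and the labels list 1 sample per group. With 2 libraries per side and median standard errors of 0.28 and 0.38 on the log2 scale, small changes were not detectable.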
